A study of Mus musculus with 84 samples.

Results

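The O,O-diethyl organophosphorus pesticide (OPP) parathion (PT) was compared with the O,O-dimethyl OPPs fenthion (FT) and methidathion (MT) in the mouse liver, in the treated groups whose estimated intake lay closest to 3 mg/Kg-bw/day. Groups were chosen by compound and dose, with earlier results of these data known. They comprised PT at 20 ppm (3 mg/Kg-bw/day), FT at 20 ppm (3 mg/Kg-bw/day) and MT at 25 ppm (3.75 mg/Kg-bw/day), with 7 mice each, or 21 of the 84 mice of the series. All were male B6C3F1 mice, 8 weeks old, that received the pesticide in the diet for 7 days, and liver RNA was profiled by TempO-Seq, which counts ligated pairs of short probes targeting each mRNA. Each group held 2 mice of experimental block 1, 3 mice of block 3 and 2 mice of block 4. RNA of 19 mice was isolated at Expression Analysis (EA), and RNA of 2 FT mice, replicates 4 and 6, at the U.S. EPA, so the effect of the isolating laboratory was estimated within FT alone. No control mouse entered any comparison, so a difference says which compound gave the higher level and not whether either differed from untreated liver.

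OPPs of the phosphorothioate and phosphorodithioate types are converted in the liver by cytochrome P450s to oxons, which phosphorylate the active-site serine of acetylcholinesterase and of other serine hydrolases. Carboxylesterases and butyrylcholinesterase take up oxons stoichiometrically, and paraoxonase hydrolyses them. Glutathione S-transferases can remove a methyl group from dimethyl OPPs, a route known to be slower for diethyl OPPs, and a dimethyl-phosphorylated esterase recovers and ages faster than a diethyl-phosphorylated one. PT is the only diethyl compound here, and the 3 compounds also differ in the group that leaves the phosphorus: PT carries a nitrophenyl group, FT a phenyl group with a methylthio substituent, and MT a heterocycle joined through a second sulfur. The alkyl group therefore cannot be told apart from the rest of the molecule, and PT and MT also differ in dose.

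Total counts per mouse ranged from 8621603 to 15300560 with a median of 11418639, and 10461 of the 17695 genes in the table had a median count above 8 over the 21 mice and were tested. The medians by group were 11391866 counts for PT, 11535612 for FT and 11418594 for MT. The 13 hepatocyte markers summed to between 56826 and 76354 CPM (counts scaled to the library total) in every mouse, so the tissue label held, whereas the 8 pancreatic acinar markers in the table never summed above 2.50 CPM and Prss2 was at 0 in all PT and FT mice. The share of the total sum of squares of log2 CPM over the tested genes was taken for each term fitted after the others. The 3 compounds took 8.66% over 2 degrees of freedom, the blocks 20% over 2 and the isolating laboratory 11.2% over 1. The residual was 55.8% over 15, and what the terms share is in none of these values. Per degree of freedom the compounds thus took 4.33% and the residual 3.72%. Liver endothelial markers, the other list with members at an unadjusted p below 0.05 in PT besides hepatocyte markers, summed to between 491 and 549 CPM in PT, 518 and 602 CPM in FT and 465 and 598 CPM in MT over 12 genes. A bulk liver sample does not separate fewer cells of a type from less RNA per cell.

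The first question was which genes differed between the diethyl and the dimethyl OPPs. By the edgeR quasi-likelihood test, 0 of 10461 genes (0%) had an adjusted p-value below 0.05 in PT against the mean of FT and MT, and the smallest adjusted p was 0.62. At an unadjusted p below 0.05 there were 753 genes (7.2%), 418 higher and 335 lower in PT. DESeq2 and limma also called 0 genes, with 679 and 693 genes at an unadjusted p below 0.05. The log2 fold change had a median of 0.004 and a median absolute size of 0.08 over all genes, and it reached 1 in absolute size in 15 genes. Fitted within a block, the comparison called 0 genes in block 1 (6 mice) and 1 gene in block 3 (9 mice). Genes were also called in block 4 (6 mice). There the laboratory term takes up FT replicate 6, so FT rests on replicate 7 alone. The number of calls is therefore listed only among the processing alternatives below and is not read as a result.

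A missed threshold does not show that the compounds acted alike, and the width of the intervals states what the 21 mice could exclude. For 10165 genes (97.17%) the 95% interval of the PT difference lay inside 2-fold in either direction, and for 8691 genes (83.08%) it lay inside 1.5-fold. The interval of 24 genes reached 4-fold. The median half-width was 0.22 on the log2 scale, or 1.17-fold. In the pair with equal intake, PT against FT, 9884 intervals (94.48%) stayed inside 2-fold and 7771 (74.29%) inside 1.5-fold. With the laboratory as a term, the FT level rests mainly on the 5 FT mice isolated at EA, and the widths include this cost. These intervals treat the mice as independent, and cages, which are not in the labels, could not be entered as a term.

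**Figure D1:**
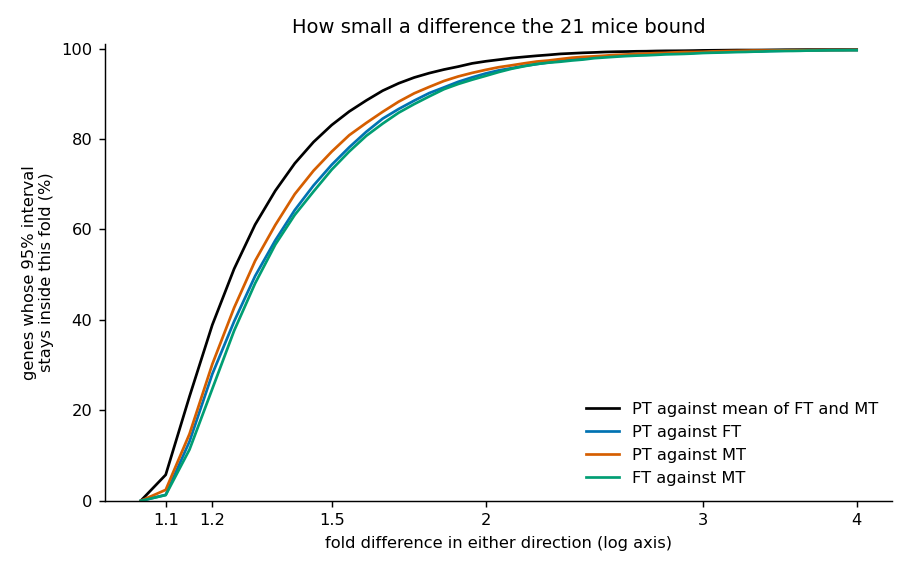
Percentage of the 10461 tested genes (vertical axis) whose 95% interval of the fold difference stayed inside a given fold in either direction (horizontal log axis), with 1 line per comparison. The line for PT against the mean of FT and MT runs above those of the pairs and reaches 83.08% at 1.5-fold and 97.17% at 2-fold.

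Butyrylcholinesterase, encoded by Bche (chr3:73543141-73615748, GRCm39), is made in the liver, circulates in plasma and binds OPP oxons, and its transcript had the smallest p-value among the genes lower in PT. The 7 PT livers ranged from 125 to 165 CPM with a median of 155 CPM. The FT livers ranged from 158 to 250 CPM with a median of 212 CPM, and the MT livers from 152 to 199 CPM with a median of 170 CPM. PT livers were the lowest as a group, but the ranges overlapped: 3 of 7 PT mice lay below every FT and MT mouse.

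The means were 150 ± 13.7 CPM for PT, 207 ± 35.7 CPM for FT and 173 ± 15.7 CPM for MT (SD, n = 7 each). The Bche log2 fold change in PT against the mean of FT and MT was -0.30 (SE 0.073, 95% interval -0.45 to -0.15), or 0.812-fold, and it missed the edgeR test (adjusted p = 0.62). It was -0.13 within block 1, -0.33 within block 3 and -0.45 within block 4, and it lay between -0.33 and -0.25 when any of the 21 mice was left out. Against FT alone, at the same 3 mg/Kg-bw/day, Bche was 0.761-fold (95% interval 0.67 to 0.865), which also missed the test (adjusted p = 0.869). For context, the median over untreated livers was 173 CPM (132 to 237 CPM), and the median was 172 CPM at 40 ppm PT and 327 CPM (217 to 357 CPM) at 80 ppm PT. The PT medians rose with dose, and the untreated median lay above that at 20 ppm and close to that at 40 ppm. The other FT doses had medians from 189 to 202 CPM and the other MT doses from 161 to 195 CPM.

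Acetylcholinesterase, the neural target of OPPs, is encoded by Ache (chr5:137285781-137292728) and was scarcely detected in liver. It ranged from 0.223 to 0.966 CPM in PT with a median of 0.342 CPM, from 0.196 to 0.695 CPM in FT with a median of 0.364 CPM, and from 0.175 to 0.438 CPM in MT with a median of 0.361 CPM. All 3 groups overlapped, and 3 counts corresponded to between 0.196 and 0.348 CPM in these libraries. Ache did not reach the count filter. Fitted without the filter, its log2 fold change was 0.43 (SE 0.33, 95% interval -0.25 to 1.12, edgeR adjusted p = 0.872), so the interval ran from 0.839-fold to 2.18-fold and included no difference.

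The genes with the smallest p-values among those higher in PT were Slc30a3, Atxn2l, Gna11, Srsf7 and Dus4l, each with an edgeR adjusted p of 0.62. Slc30a3 (chr5:31241914-31265581), a zinc transporter of synaptic vesicles, ranged from 0.838 to 1.93 CPM in PT with a median of 1.03 CPM, from 0.546 to 1.56 CPM in FT with a median of 0.833 CPM, and from 0.285 to 0.868 CPM in MT with a median of 0.643 CPM. Of the PT mice, 6 of 7 lay above every MT mouse but only 1 lay above every FT mouse, and the FT mice above 1 CPM were those isolated at the EPA. The log2 fold change was 0.86 (SE 0.18), or 1.81-fold (95% interval 1.4 to 2.35), and it was 0.81, 0.85 and 0.96 within blocks 1, 3 and 4. At 40 and 80 ppm PT the medians were 1.36 and 1.01 CPM, against 0.768 CPM in untreated livers. The other FT doses had medians from 0.661 to 0.887 CPM and the other MT doses from 0.803 to 1.01 CPM, so MT at 50 ppm was close to PT at 20 ppm.

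Atxn2l, an RNA-binding protein of stress granules, ranged from 5.56 to 9.74 CPM in PT with a median of 7.53 CPM, against medians of 6.24 CPM in FT and 5.76 CPM in MT. The highest FT mouse was at 6.79 CPM and the highest MT mouse at 6.15 CPM, so 5 of 7 PT mice lay above every other mouse. Its fold difference was 1.34 (95% interval 1.17 to 1.52). Dus4l, a dihydrouridine synthase of tRNA, separated slightly further: it ranged from 2.84 to 4.01 CPM in PT, from 2.17 to 2.97 CPM in FT and from 2.01 to 2.89 CPM in MT, with 6 of 7 PT mice above all others and a fold difference of 1.37 (95% interval 1.18 to 1.6). Srsf7, a splicing factor, had a fold difference of 1.49 (95% interval 1.23 to 1.8), with FT mice spread from 2.88 to 8.63 CPM across the whole PT range of 4.55 to 8.43 CPM.

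Gna11, a G protein alpha subunit that couples receptors to phospholipase C, had an estimate that changed with the term for the isolating laboratory. PT livers ranged from 3.50 to 4.98 CPM with a median of 4.36 CPM, FT livers from 2.82 to 5.91 CPM with a median of 3.31 CPM, and MT livers from 2.75 to 4.12 CPM with a median of 3.11 CPM. The FT mice isolated at the EPA stood at 4.78 and 5.91 CPM, while the 5 FT mice isolated at EA stood between 2.82 and 3.63 CPM. The log2 fold change was 0.40 (SE 0.09, adjusted p = 0.62) with the laboratory as a term and 0.29 without it. With only 2 mice isolated at the EPA, both FT, laboratory and differences between mice cannot be told apart.

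Besides Bche, the genes with the smallest p-values among those lower in PT were Plk2, Jmy, Zwilch and Car14, each again with an edgeR adjusted p of 0.62. Zwilch, a kinetochore protein of the mitotic checkpoint, ranged from 0.709 to 1.97 CPM in PT with a median of 1.45 CPM, from 2.03 to 3.33 CPM in FT with a median of 2.77 CPM, and from 1.81 to 4.93 CPM in MT with a median of 2.28 CPM. All 7 PT mice lay below the lowest FT mouse, and 5 of 7 lay below the lowest MT mouse. Its log2 fold change was -0.85 (SE 0.22), or 0.554-fold (95% interval 0.404 to 0.758), with -0.50, -0.71 and -1.44 within blocks 1, 3 and 4. Median levels were 1.67 and 1.29 CPM at 40 and 80 ppm PT and 2.24 CPM in untreated livers. FT at 2.5 ppm had a median of 1.33 CPM, below that of PT at 20 ppm, and the other FT and MT doses had medians from 1.96 to 2.37 CPM.

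Plk2, a kinase of centriole duplication that is also a p53 target, ranged from 5.74 to 10.2 CPM in PT, from 7.89 to 14 CPM in FT and from 8.41 to 12.3 CPM in MT, with medians of 7.27, 10.1 and 10.4 CPM. PT mice were mostly the lowest, with 5 of 7 below every FT and MT mouse, and the fold difference was 0.736 (95% interval 0.627 to 0.864). The untreated median was 11.2 CPM, and those at 40 and 80 ppm PT were 8.88 and 9.24 CPM. The other FT doses had medians from 8.25 to 9.88 CPM and the other MT doses from 7.88 to 10.5 CPM. Jmy, an actin nucleator and p53 cofactor, had a fold difference of 0.811 (95% interval 0.725 to 0.906), with 4 of 7 PT mice below all others. Car14, a membrane carbonic anhydrase, had 0.745 (95% interval 0.636 to 0.873), with 1 of 7 PT mice below all others.

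**Figure D2:**
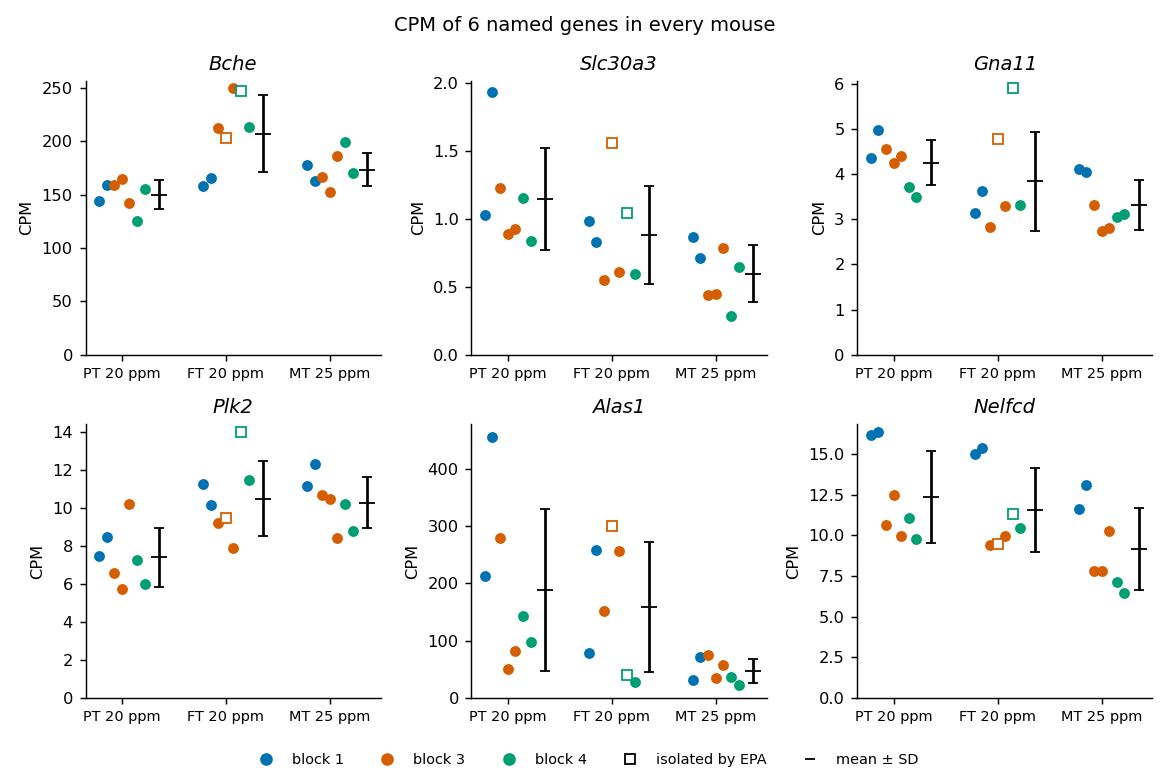
CPM of Bche, Slc30a3, Gna11, Plk2, Alas1 and Nelfcd (vertical axes, from 0) in each of the 7 mice of the PT 20 ppm, FT 20 ppm and MT 25 ppm groups, coloured by block, with open squares for the 2 mice isolated at the EPA and the mean ± SD beside each group. PT points tend to sit low for Bche and Plk2 and high for Slc30a3, the groups overlap in all 6 genes, and the EPA squares are the highest FT points for Gna11.

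The genes that handle OPPs were examined next, as 4 lists. Of 23 listed paraoxonases, cholinesterases and other serine hydrolases, 22 were tested and 0 were called, with 5 at an unadjusted p below 0.05 (22.7%, against 7.2% of all genes), which are named here after their values were seen. Prep, prolyl oligopeptidase, and Pnpla6, the neuropathy target esterase that some OPPs inhibit, were on the higher side at log2 fold changes of 0.19 (95% interval 0.05 to 0.33) and 0.21 (0.03 to 0.38). Bche, the deacetylase Aadac and the fatty acid amide hydrolase Faah were on the lower side, the latter pair at -0.19 (-0.37 to -0.01) and -0.15 (-0.28 to -0.03). The list median was -0.05, the intervals of all 22 lay inside 2-fold and those of 21 inside 1.5-fold, so the differences in this list were narrow in size.

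Paraoxonase, encoded by Pon1 and chosen after its values were seen, ranged from 124 to 213 CPM in PT with a median of 180 CPM, against medians of 180 CPM in FT and 192 CPM in MT. Its log2 fold change was -0.10 (95% interval -0.30 to 0.09, adjusted p = 0.864). Its groups overlapped widely.

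Of 19 carboxylesterases, 15 were tested, with a median log2 fold change of -0.03, 0 at an unadjusted p below 0.05 and 14 intervals inside 2-fold. The estimates ran from -0.35 for Ces2f (95% interval -1.11 to 0.41) to 0.35 for Ces4a (-0.24 to 0.93). Ces2f had few counts, with medians of 0.396 CPM in PT, 0.780 CPM in FT and 0.940 CPM in MT, and its estimate was -0.13 without PT replicate 1, while that of Ces4a was 0.16 without PT replicate 7. Ces1c, the plasma carboxylesterase of the mouse and also chosen after its values were seen, had medians of 5703 CPM in PT, 5921 CPM in FT and 6060 CPM in MT. Its log2 fold change was -0.10 (95% interval -0.26 to 0.06), and the summed CPM of the 18 listed genes in the table overlapped across groups, with medians of 7760 for PT, 8141 for FT and 8429 for MT.

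Of 26 glutathione S-transferases, the enzymes of the demethylation route, 18 were tested, 0 were called, and the median log2 fold change was -0.01 with 9 genes above and 9 below 0. Gstp1 and Gstp2 had unadjusted p-values below 0.05, at 0.33 (95% interval 0.03 to 0.64) and 0.34 (0.03 to 0.64). They are near-identical neighbours whose probes may share reads, so they count as 1 uncertain result. Gstp2 ranged from 449 to 1062 CPM in PT, from 446 to 600.3 CPM in FT and from 467 to 744 CPM in MT. Only the upper PT mice stood apart, 3 of 7 above all others, and the log2 fold change was 0.88 within block 3 but -0.07 and -0.10 within blocks 1 and 4.

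Gsta1 had the largest estimate of this list, 0.47 (95% interval -0.58 to 1.53), and it rested on PT replicate 5 at 16.4 CPM: without that mouse it was -0.22. Flavin monooxygenases, which with P450s oxidise the methylthio group of FT, had 4 of 5 members tested. Fmo4 had a log2 fold change of 0.45 (95% interval 0.05 to 0.85, adjusted p = 0.655), with PT from 0.878 to 1.80 CPM inside the FT range of 0.784 to 2.29 CPM. Fmo5 was at 0.09 (95% interval -0.10 to 0.28).

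**Figure D3:**
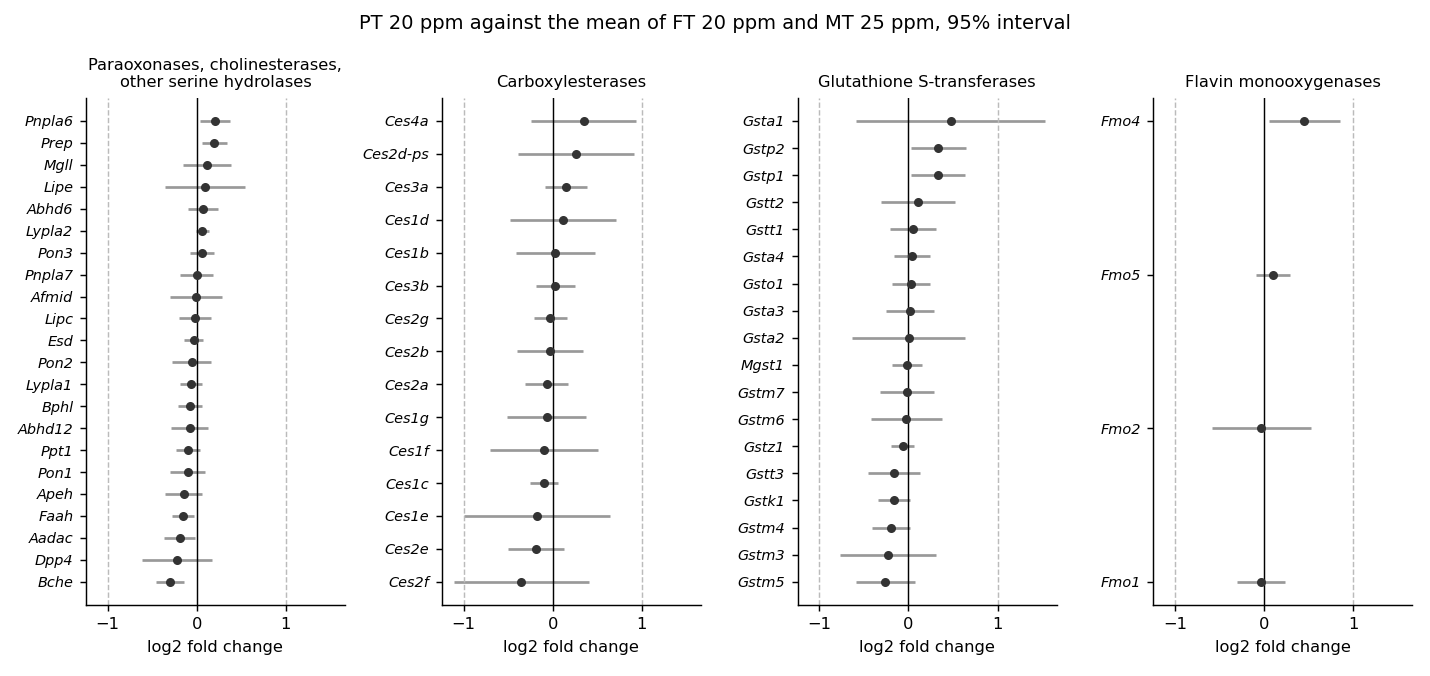
Log2 fold change (horizontal axis) of PT 20 ppm against the mean of FT 20 ppm and MT 25 ppm for each tested paraoxonase, cholinesterase or other serine hydrolase, carboxylesterase, glutathione S-transferase and flavin monooxygenase, with 95% intervals and dashed lines at 2-fold. The 22 hydrolases lie within 2-fold, intervals are widest for Gsta1, Ces1e and Ces2f, and no gene passed the adjusted test.

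No xenobiotic-responsive enzyme among those tested was called. Of 28 CAR and PXR target enzymes, the set induced by phenobarbital-like and pregnane-like compounds, 21 were tested with a median log2 fold change of -0.11, 6 above 0 and 15 below. The 21 held no Cyp2b gene, so the list says nothing about those. Cyp2b13 and Cyp2b23 had 0 counts in every PT and every MT mouse. Cyp2c55 was at -0.52 (95% interval -0.93 to -0.12), with PT from 1.11 to 3.13 CPM, FT from 1.63 to 4.08 CPM and MT from 2.30 to 4.47 CPM. Cyp3a11, the main CYP3A enzyme of mouse liver, was at 0.39 (0.03 to 0.76), but at -0.13, 1.03 and -0.15 within blocks 1, 3 and 4. Both missed the test, with adjusted p-values of 0.62 and 0.655.

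AHR target enzymes had 5 of 9 members tested, with Ahr itself, the dioxin receptor, at 0.42 (95% interval 0.09 to 0.76) and Cyp1a2 at 0.25 (0.06 to 0.44). These 2 of 5 (40%, against 7.2% of all genes) had an unadjusted p below 0.05. Cyp1a1 was not among the 5 tested. Cyp1a2 ranged from 56.7 to 131 CPM in PT, from 38.1 to 96.7 CPM in FT and from 46.2 to 105 CPM in MT, so only the highest PT mouse stood above all others. Among 21 other P450s the estimates ran only from -0.22 for Cyp2d11 to 0.08 for Cyp2u1. Among 24 UDP-glucuronosyltransferases and sulfotransferases they ran from -0.61 for Ugt1a5 to 0.49 for Sult1e1, with a median of -0.02. Ugt1a transcripts share their 3' exons, so Ugt1a5 is uncertain. Among 24 genes of glutathione supply and Nrf2 targets the median was 0.03, from -0.19 for Nfe2l2 to 0.24 for Hmox1.

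Alas1 (chr9:106110642-106135734), the rate-limiting enzyme of heme synthesis and so of P450 assembly, had the largest estimate of any gene named so far. PT livers ranged from 51.2 to 456 CPM with a median of 143 CPM, FT livers from 26.9 to 299.7 CPM with a median of 152 CPM, and MT livers from 22.4 to 74.8 CPM with a median of 36.9 CPM. PT and FT thus overlapped between 51.2 and 299.7 CPM, with 1 PT mouse above every FT mouse, while 6 of 7 PT mice lay above every MT mouse. The log2 fold change was 1.27 (SE 0.38, 95% interval 0.47 to 2.06, adjusted p = 0.62) against the mean of FT and MT, 0.56 (-0.45 to 1.56) against FT at equal intake, and 1.97 (1.04 to 2.90, adjusted p = 0.252) against MT at 3.75 mg/Kg-bw/day. It was 1.84, 0.37 and 2.15 within blocks 1, 3 and 4. The untreated median was 56.1 CPM (15.8 to 287 CPM), and the medians of all 12 groups of the series ran from 31.8 to 207 CPM. The other members of the heme list stayed close to 0: the median over its 17 genes was 0.06, and Alas1 was the only one at an unadjusted p below 0.05.

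Lists of liver stress and metabolism were summarised by their counts and medians beside those of all genes (5389 above and 5072 below 0, median 0.004). Acute phase genes, whose products the liver secretes in inflammation, had a median of 0.18, with 30 of 37 above 0. At an unadjusted p below 0.05 there were 5 (13.5%, against 7.2% of all genes), all higher in PT. Of all genes at that limit, 418 were higher and 335 lower. The 5, named after their values were seen, were Saa4 at 0.75 (95% interval 0.35 to 1.14), Steap4 at 0.89 (0.40 to 1.39), Lbp at 0.92 (0.26 to 1.59), Socs3 at 0.91 (0.02 to 1.8) and Cebpd at 0.46 (0.04 to 0.88). None passed the adjusted edgeR test. Lcn2 had a larger estimate but was not among the 5. Lcn2 ranged from 9.14 to 4184 CPM in PT, from 24.1 to 3383 CPM in FT and from 29.7 to 3159 CPM in MT, so the 3 groups overlapped along most of their length. Its log2 fold change was 1.11 (95% interval -1.39 to 3.60), with 2.78, -1.39 and 4.34 within blocks 1, 3 and 4. The residual SD of this list had a median of 0.50 on the log2 scale against 0.196 over all genes.

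Unfolded protein and heat shock genes had a median of 0.17, with 25 of 31 above 0. Sdf2l1, an endoplasmic reticulum cochaperone, ranged from 62.3 to 256 CPM in PT with a median of 185 CPM, against 88.2 to 146 CPM in FT and 80.5 to 146 CPM in MT with medians of 110 and 105 CPM. Of the PT mice, 5 of 7 lay above all others and 1 below all others, and the log2 fold change was 0.53 (95% interval 0.13 to 0.93, adjusted p = 0.62), with -0.40, 0.91 and 0.93 within blocks 1, 3 and 4. Ddit3, the stress transcription factor CHOP, was at 0.62 (-0.01 to 1.25), and at 0.20 without PT replicate 3.

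Cell cycle genes had a median of -0.23, with 14 of 19 below 0. Birc5, survivin, ranged from 0.495 to 1.14 CPM in PT, from 0.416 to 1.91 CPM in FT and from 0.795 to 1.95 CPM in MT. The groups overlapped, and its log2 fold change of -0.68 (95% interval -1.21 to -0.15) and that of the kinetochore gene Cenpf, -0.72 (-1.45 to 0.01), missed the test with adjusted p-values of 0.62 and 0.691. Fatty acid synthesis genes had a median of -0.18, with 19 of 24 below 0 and 0 at an unadjusted p below 0.05. Acacb, the acetyl-CoA carboxylase that restrains fatty acid oxidation, was at -0.46 (-0.92 to 0.01), and the elongase Elovl6 at -0.51 (-1.14 to 0.12), which was -0.29 without MT replicate 3.

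Bile acid genes had a median of -0.07, with 17 of 23 below 0. At an unadjusted p below 0.05 there were 5 (21.7%, against 7.2% of all genes), 1 higher and 4 lower in PT. Cyp7a1, the rate-limiting enzyme of bile acid synthesis, was at -0.61 (95% interval -1.55 to 0.33), and Klb, the coreceptor of the intestinal FGF signal that represses it, at -0.44 (-0.86 to -0.03). Within block 1 the signs of both were opposite, at 0.60 and 0.19. FT replicate 3 had Cyp7a1 at 54.4 CPM, and without it the Cyp7a1 estimate was -0.10. PPAR alpha and fatty acid oxidation genes had a median of -0.08, with Ppara, the nuclear receptor for fatty acids in fasting, at -0.33 (-0.60 to -0.06) and Pdk4 at -0.51 (-1.48 to 0.46), which was -0.24 without MT replicate 3. Clock genes had a median of -0.05, with 3 of 16 (18.8%) at an unadjusted p below 0.05, all lower in PT. Dbp, a strongly rhythmic clock output gene, stood between 145 and 609 CPM in all block 1 mice and between 7.08 and 123 CPM in the mice of blocks 3 and 4, so it moved with block in every compound. Its log2 fold change was -0.90 (-1.85 to 0.04), and the collection time of each mouse is not in the labels.

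The immediate early list had a median of 0.14 over 14 genes, with Myc at 0.88 (-0.53 to 2.29) and Jun at 0.74 (0.26 to 1.22). The Myc value rested on PT replicate 7, without which it was 0.09. The sex-dependent growth hormone list had 0.05 over 28 genes, from the STAT5-opposed repressor Bcl6 at -0.82 (-1.50 to -0.13) to Mup7 at 1.16 (0.10 to 2.22), whose near-identical paralogs may share its reads. The glucocorticoid and fasting list had 0.05 over 25 genes, with Gadd45g at 1.34 (-0.03 to 2.71), which was 0.53 without PT replicate 7. Mup7 was 0.66 without PT replicate 5. Medians were 0.04 for 33 interferon-stimulated genes, 0.07 for 13 p53 targets, -0.01 for 23 cholesterol synthesis genes and -0.02 for 4 cholinergic genes. At an unadjusted p below 0.05 were 3 p53 targets (23.1%), 0 interferon-stimulated genes, 1 cholesterol synthesis gene (4.35%) and 1 cholinergic gene (25%). The same limit held 2 immediate early and 4 growth hormone genes (14.3% each) and 1 glucocorticoid and fasting gene (4%), against 7.2% of all genes. No member of any list passed the adjusted edgeR test.

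**Figure D4:**
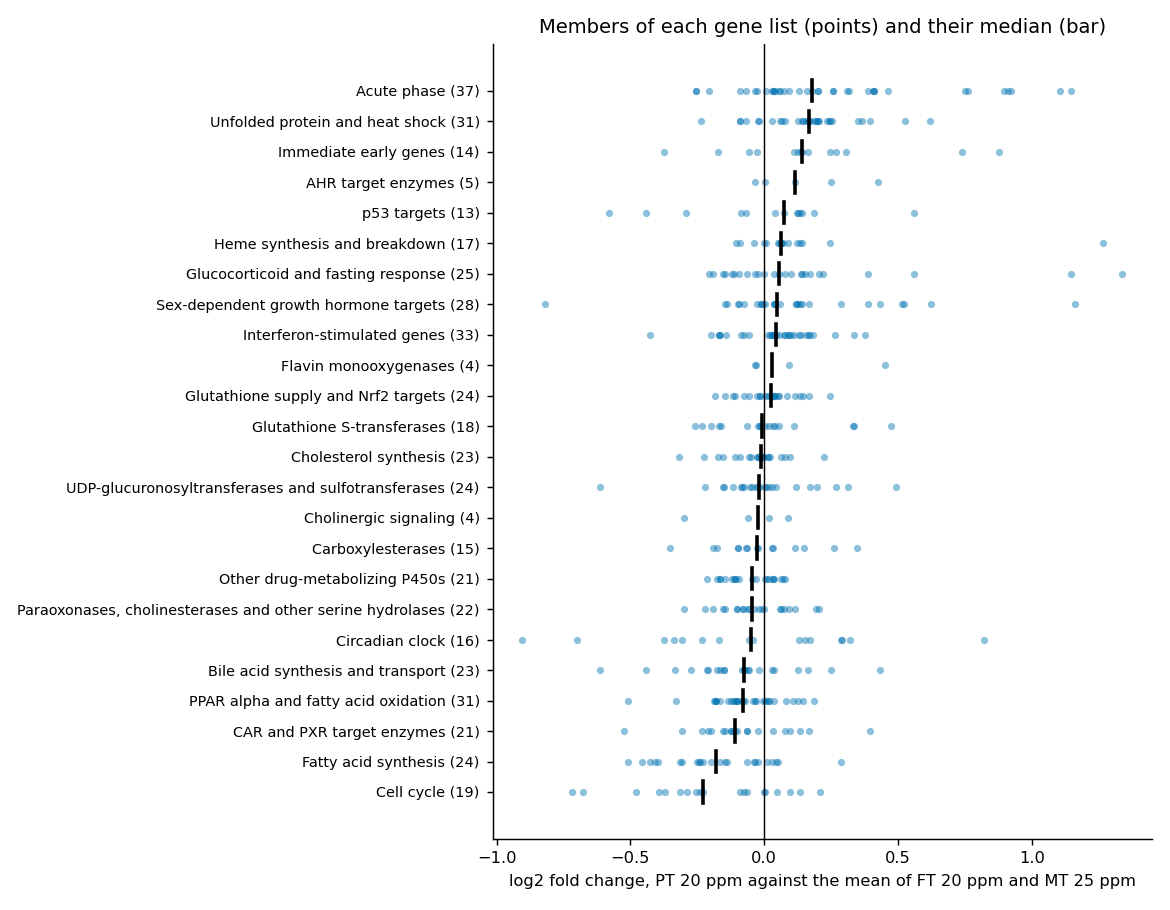
Log2 fold change (horizontal axis) of PT 20 ppm against the mean of FT 20 ppm and MT 25 ppm for every tested member of 24 pathway lists (points), with a bar at each list's median and the number of tested genes in brackets. Medians run from -0.23 for cell cycle to 0.18 for acute phase, and single genes such as Alas1 and Gadd45g lie far from the medians of their lists.

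The pairs were then taken separately, 3 in all. PT and FT were both given at 20 ppm (3 mg/Kg-bw/day), which made this the only pair at a matched dose. edgeR, DESeq2 and limma called 0 genes between them, with 584 (5.58%), 511 and 557 genes at an unadjusted p below 0.05. The genes with the smallest p-values that were higher in PT were Gna11, Ikbke and Orc4. Ikbke, an interferon-pathway kinase, ranged from 7.10 to 15.2 CPM in PT with a median of 11.7 CPM, against 4.46 to 8.95 CPM in FT with a median of 7.70 CPM and 6.83 to 11.1 CPM in MT with a median of 9.01 CPM. PT exceeded the highest FT mouse in 6 of 7 mice, and the log2 fold change from FT was 0.72 (SE 0.18, adjusted p = 0.869). Orc4, of the origin recognition complex, was at 0.38 (SE 0.099).

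The genes with the smallest p-values that were lower in PT than in FT were Bche, Txndc16 and Pank1. Txndc16, a thioredoxin-domain protein of the endoplasmic reticulum, ranged from 5.57 to 8.68 CPM in PT and from 8.43 to 12.6 CPM in FT, so 6 of 7 PT mice lay below the lowest FT mouse. Its log2 fold change was -0.49 (SE 0.12), with -0.37, -0.82 and -0.02 within blocks 1, 3 and 4. Pank1, a pantothenate kinase of coenzyme A synthesis, was at -0.37 (SE 0.099). All of these had an adjusted p of 0.869. Of 4 erythroid markers tested, 3 had an unadjusted p below 0.05 (75%, against 5.58% of all genes), all lower in PT than in FT. The median log2 fold change over the 4 was -0.73, adjusted for block and laboratory. Without that adjustment, the 6 in the table summed to between 26.2 and 83.2 CPM in PT (median 50.1 CPM). In FT they summed to between 44 and 172 CPM (median 56 CPM), so the groups overlapped. The part of erythroid markers in the values above was not tested.

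PT at 20 ppm and MT at 25 ppm differed in dose as well as compound, 3 against 3.75 mg/Kg-bw/day, so their values are set side by side. edgeR and limma called 0 genes, with 1028 (9.83%) and 905 at an unadjusted p below 0.05, whereas DESeq2 called 12 and had 925. The 12 had edgeR adjusted p-values from 0.252 to 0.254 and included Iscu, Gm45717, Atl3, Nelfcd, Cldn1, Alas1 and the acute phase gene Steap4. Nelfcd, a subunit of the negative elongation factor of RNA polymerase II, ranged from 9.75 to 16.3 CPM in PT with a median of 11.1 CPM and from 6.43 to 13.1 CPM in MT with a median of 7.79 CPM. Most PT mice lay within the MT range, with 2 of 7 above it, and the log2 fold change was 0.44 (SE 0.083) in edgeR, with 0.42, 0.37 and 0.58 within blocks 1, 3 and 4.

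Iscu, a scaffold of iron-sulfur cluster assembly, was at 0.30 (SE 0.063), with PT from 66.4 to 107 CPM and MT from 50.8 to 95.4 CPM. Gm45717, a predicted gene, was at 1.04 (SE 0.21), with PT from 29.5 to 113 CPM and MT from 11.2 to 52.7 CPM. On the lower side stood Atl3, a membrane-shaping atlastin of the endoplasmic reticulum, at -0.25 (SE 0.054), the tight junction protein Cldn1 at -0.33 (SE 0.076) and the zinc finger gene Zfp386 at -0.31 (SE 0.073). Atl3 separated furthest, with 6 of 7 PT mice below the lowest MT mouse.

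The dimethyl OPPs FT at 20 ppm and MT at 25 ppm also differed in dose, at 3 and 3.75 mg/Kg-bw/day. edgeR, DESeq2 and limma called 0 genes, with 871 (8.33%), 780 and 813 at an unadjusted p below 0.05. The dimethyl pair thus had a median absolute log2 fold change of 0.11, against 0.09 for PT with FT and 0.10 for PT with MT, and the 3 values share their mice. The smallest p-values belonged to Ypel3 at 0.54, Klf9, a glucocorticoid-responsive factor, at 0.55 and Cox17, a copper chaperone of cytochrome oxidase, at 0.81, all higher in FT with adjusted p-values of 0.367, and to Slc16a6 at -0.65, the collagen gene Col6a3 at -0.67 and Zfp386 at -0.35, lower in FT with adjusted p-values of 0.378. Erythroid markers summed to between 44 and 172 CPM in FT and between 30.6 and 57.9 CPM in MT, and their part in these values was not tested. With p-values adjusted over all 3 pairs together, 0 genes were called and the smallest adjusted p was 0.442.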

How the data were processed

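Liver RNA of 21 mice was profiled by TempO-Seq. The authors deposited estimated counts per gene, assigned with an expectation-maximization step in Partek after STAR alignment to mm39. Of these values 18.7% were not whole and were rounded. Estimated counts carry the uncertainty of splitting reads among near-identical genes. Of 17695 identifiers, 17660 were named from GENCODE M39 (GRCm39), and coordinates are from that annotation. The authors' normalized table was not used.

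Genes with a median count above 8 over the 21 mice were kept. edgeR 4.0.16 (quasi-likelihood, TMM; R 4.3.3) was fitted with group, block and isolating laboratory, and p-values were Benjamini-Hochberg adjusted over all 10461 genes. DESeq2 1.42.0 and limma 3.58.1 (log2 of CPM plus 1) were alternatives, as were RLE factors, other filters, no block, no laboratory, EA mice alone, all 84 mice, pairs alone, each block alone and each mouse left out. The scripts were tested on simulated data. No pair of libraries within a group agreed within sampling noise.

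Named genes were Ache, the 5 with the smallest p in each direction (3 in each pair) and, per list, up to 2 with the largest change. The groups, lists and genes were chosen with earlier results of these data known. Replicate numbers were assigned in accession order and pair nothing. Deviations from the group means were compared between mice of different groups. The median r was 0.0824 (-0.332 to 0.592) over 51 pairs of the same block and -0.063 (-0.396 to 0.337) over 96 pairs of different blocks. The ranges overlapped, and centring on group means ties the 2 signs to each other. Total counts limit precision: 3 counts equalled 0.196 to 0.348 CPM, and this covers counting error only. Labels do not give cages, so p-values measure the spread between these mice.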

Additional observations from a re-analysis of the deposited data

Results flagged for a closer look

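The named genes defined above were checked for outlying mice. The highest and lowest mouse of each group of 7 was compared with the rest of its group. The measure was the share of the group's range taken by the gap to the nearest mouse. In 24 of 192 values tested, this share exceeded the 95% limit of Dixon's test for 7 values. About 1 in 20 would do so by chance if values were normally distributed. CPM was not log-transformed here, and many genes were named for large differences, so that rate is no fair reference. The 24 values lay in 14 of the 21 mice, with at most 3 in any mouse, and no cause was tested.

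MT replicate 5 stood furthest out, with Myc at 49.5 CPM (next mouse 6.65 CPM) and Gadd45g at 67.96 CPM (next mouse 6.48 CPM). MT replicate 3 had the highest lipid values of its group, with Elovl6 at 303.1 CPM, Acacb at 18.5 CPM and Pdk4 at 7.71 CPM. MT replicate 4 had Lcn2 at 3159 CPM and the lowest Zfp386, 19.9 CPM. MT replicate 1 had Orc4 at 17.8 CPM, and MT replicate 7 had Zwilch at 4.93 CPM.

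Both FT mice isolated at the EPA were among them: replicate 6 with Pdk4 at 9.99 CPM, Dpp4 at 4.17 CPM and Zfp386 at 32.9 CPM, and replicate 4 with Lcn2 at 3383 CPM and Sult1e1 at 9.26 CPM. FT replicate 3 had Cyp7a1 at 54.4 CPM and Mt2 at 471 CPM. FT replicate 2, of block 1, had Dbp at 609 CPM, and FT replicate 7 had Bcl6 at 196 CPM.

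PT replicate 3 had the stress genes Ddit3 at 5.35 CPM and Jun at 28.6 CPM. PT replicate 5 had Gsta1 at 16.4 CPM and Mup7 at 9.74 CPM. PT replicate 1 had Gm45717 at 113 CPM, and PT replicate 2 had Slc30a3 at 1.93 CPM.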

How the results depend on the processing

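The count of 0 called genes in PT against the mean of FT and MT held in all 21 fits without 1 mouse, with no replicate block (0 in every comparison) and under every other alternative run except the fits within a block. Block 1 alone (6 mice) called 0. Block 3 alone (9 mice) called 1 gene against the mean of FT and MT and 6 against FT. Block 4 alone (6 mice) called 30 genes against the mean, 52 against FT, 3 against MT (Saa3, Lbp and Bpifb4) and 16 between FT and MT. Saa2 and Saa1 had the smallest p-values in the other 3 of these comparisons. In the block 4 fit the laboratory term takes up FT replicate 6, so FT rests on replicate 7 alone. The block 4 counts that involve FT are therefore not read as differences between compounds. With all mice, DESeq2 called 12 between PT and MT. The cause of these calls was not tested.

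Among named genes, 2179 of 2209 alternative values kept their direction and their side of the threshold. In DESeq2, Nelfcd (0.43), Gm45717 (1.06), Iscu (0.30), Atl3 (-0.25) and Cldn1 (-0.33) passed between PT and MT. In block 4 alone, where FT rests on replicate 7, Lcn2 rose to 4.34 and Alas1 to 2.15. Signs turned in block 1 alone for Cyp3a11 (-0.13), Gsta1 (-0.67), Gstp2 (-0.070), Hmox1 (-0.026), Fmo5 (-0.0086), Sdf2l1 (-0.40), Dbp (0.28), Cyp7a1 (0.60) and Klb (0.19). They turned in block 3 alone for Ces4a (-0.28), Pdk4 (0.38), Mt2 (-0.93), Lcn2 (-1.39) and Myc (-1.34), and in block 4 alone for Cyp3a11 (-0.15), Dpp4 (0.068), Gsta1 (-1.68), Gstp2 (-0.10), Hmox1 (-0.19), Mup7 (-0.29) and Ddit3 (-0.17). Without 1 mouse, Gsta1 ran from -0.22 to 0.74 (lowest without PT replicate 5) and Lcn2 from -0.51 to 2.26 (lowest without PT replicate 1). Other values shrank by over 1.5 times without 1 mouse, among them Mt2 (0.14 without PT replicate 1), Hmox1 (0.06 without PT replicate 3), Cyp2d11 (-0.11 without PT replicate 1), Fmo5 (0.03 without PT replicate 6), and Sult1e1 (0.29) and Nfe2l2 (-0.09) without PT replicate 7. All 245 alternative values of the list medians moved by less than the spread between mice. That spread often exceeded the median itself, with 0.372 against 0.18 for acute phase and 0.422 against -0.18 for fatty acid synthesis. It did not for cell cycle, with 0.119 against -0.23. In lists of the first kind a median could change sign within this limit, so the count says little about their stability. Genes below a few counts per library had intervals too wide to bound a 2-fold difference.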

Other observations

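The 15 genes whose log2 fold change in PT against the mean of FT and MT reached 1 in absolute size were chosen by size after their values were seen, and each missed the edgeR test with an adjusted p of 0.62 or more. On the higher side stood 9: Cish (1.497), a feedback inhibitor of cytokine and growth hormone signalling, the chemokines Ccl2 (1.35) and Cxcl1 (1.33), Gadd45g (1.34), the urinary proteins Mup12 (1.27) and Mup7 (1.16), Alas1 (1.27), Mt2 (1.15), a metallothionein, and Lcn2 (1.11). On the lower side stood 6: the immunoglobulin genes Igkv12-41 (-1.61), Ighg2b (-1.57) and Igkv8-30 (-1.18), the mitotic kinase Pbk (-1.11), the magnesium transporter Nipal1 (-1.10) and Gm8290 (-1.08). The 95% interval excluded 0 for 11 of the 15. Immunoglobulin and Mup genes share sequence with their paralogs, so their single-gene values are uncertain.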
